A study of Homo sapiens with 17 samples.

Results

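DPPA2 and DPPA4 are neighbouring genes on human chromosome 3, both transcribed from the minus strand. In GENCODE release 44 on GRCh38, DPPA2 (ENSG00000163530.4) spans chr3:109293788-109316517 and DPPA4 (ENSG00000121570.13) spans chr3:109326144-109337546, with 9626 bp between them and 21029 bp between their starts. They were examined as 2 of the 62700 annotated genes, through the promoter interactions of their HindIII fragments and through the histone mark H3K4me1 over and around both genes. The interaction lists carry no gene names, so fragments were assigned by annotated promoters, which reach from a transcript start to 1000 bp before it. Of 15982 baited fragments in the lists, 1 carried a promoter of either gene. It lies at chr3:109333735-109342133, holds the DPPA4 start and also the start of a divergent lncRNA (ENSG00000289358), and took part in 7 of the 128955 interactions that either list holds. The DPPA2 start lies on the HindIII fragment chr3:109305343-109318970, which appears in neither list as a bait or as a partner, so interactions are reported for DPPA4 only and DPPA2 is described by H3K4me1 and Hi-C.

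Naive and primed pluripotent stem cells (PSCs) came from the WA09/H9 NK2 line, an established human embryonic stem cell line, here 1 genetic background in 2 culture states. Naive PSCs were grown on Matrigel in medium with N2 and B27 supplements, PD0325901, CHIR99021, human LIF and the PKC inhibitor Go6983, and primed PSCs on Vitronectin in TeSR-E8. Promoter Capture Hi-C (PCHi-C) gave 1 interaction list per cell type from 2 combined replicates, Hi-C gave 1 library per cell type, and H3K4me1 was profiled by CUT&RUN, in which an antibody-tethered nuclease releases the marked chromatin, in 2 naive and 3 primed libraries. The H3K4me1 libraries held 21.8 M and 6.74 M reads in naive PSCs and 8.85 M, 7.89 M and 26.6 M reads in primed PSCs (M, 1000000 reads). No expression was measured in the files used here, and in libraries of many cells a mark in fewer cells and less of it per cell cannot be told apart.

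DPPA2 and DPPA4 encode small nuclear proteins with a SAP DNA-binding domain that work as a pair. They are known as markers of pluripotent cells and the early embryo, and in mouse embryonic stem cells they bind CpG-rich promoters, help to keep developmental genes in a bivalent state together with the H3K4 methyltransferases and Polycomb, and act upstream of the transcription programme of the early cleavage embryo. H3K4me1 is a histone mark of enhancers and of the shoulders of active promoters, and it is usually depleted directly over an active start site, where H3K4me3 takes its place.

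The promoter windows of both genes are shown first, because the H3K4me1 results below turn on these places. The promoters run from 250 bases before to 50 bases after the RefSeq start (GRCh38.p14, minus strand), at chr3:109316468-109316767 for DPPA2 and chr3:109337497-109337796 for DPPA4. Capitals mark a match to one of the motifs named in the next paragraph.
DPPA2 promoter: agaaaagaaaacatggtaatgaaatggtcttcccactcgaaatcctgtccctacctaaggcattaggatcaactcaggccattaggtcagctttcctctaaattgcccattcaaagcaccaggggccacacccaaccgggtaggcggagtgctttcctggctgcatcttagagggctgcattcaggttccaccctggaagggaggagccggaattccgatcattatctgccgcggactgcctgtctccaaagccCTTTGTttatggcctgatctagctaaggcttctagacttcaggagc
DPPA4 promoter: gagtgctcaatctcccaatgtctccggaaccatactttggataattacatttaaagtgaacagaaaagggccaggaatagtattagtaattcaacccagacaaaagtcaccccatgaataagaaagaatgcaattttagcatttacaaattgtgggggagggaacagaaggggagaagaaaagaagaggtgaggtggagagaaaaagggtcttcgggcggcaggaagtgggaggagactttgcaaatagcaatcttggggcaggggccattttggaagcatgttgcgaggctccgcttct

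Both promoters held fewer CpGs than the median promoter. The DPPA2 window held 7 CpGs at 51.3% GC and the DPPA4 window 5 CpGs at 45.3% GC, against a median of 14 CpGs and 58.7% GC over 35116 RefSeq promoters of the same length. The motifs were searched on both strands. The POU5F1 octamer ATGCAAAT was in neither promoter and in 1.77% of all promoters. The SOX core CTTTGT had 1 match in the DPPA2 promoter, none in the DPPA4 promoter, and was in 16.1% of all promoters. The TFAP2 palindrome GCCNNNGGC was in neither promoter and in 23.2% of all promoters. Of the 270 words of 31 bases in each promoter window, 0 occurred more than once on chromosome 3.

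In naive PSCs, H3K4me1 ran along the stretch from the DPPA2 body through the interval between the genes and into DPPA4, and in primed PSCs it was held mainly in blocks near the DPPA2 start, in DPPA4 and upstream of the DPPA4 start. Of the DPPA2 body, the interval between the genes, the DPPA4 body and the 5 kb beyond each end, the interval had the highest naive to primed ratio. Per 500 bp tile it carried 1.87 and 1.51 reads per 1000000 reads of the library (RPM) in the naive libraries and 0.351, 0.307 and 0.325 RPM in the primed libraries. The naive mean of 1.69 ± 0.261 RPM (SD, n = 2) was 5.16 times the primed mean of 0.327 ± 0.0221 RPM (SD, n = 3), and the libraries of the 2 cell types did not overlap.

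**Figure D1:**
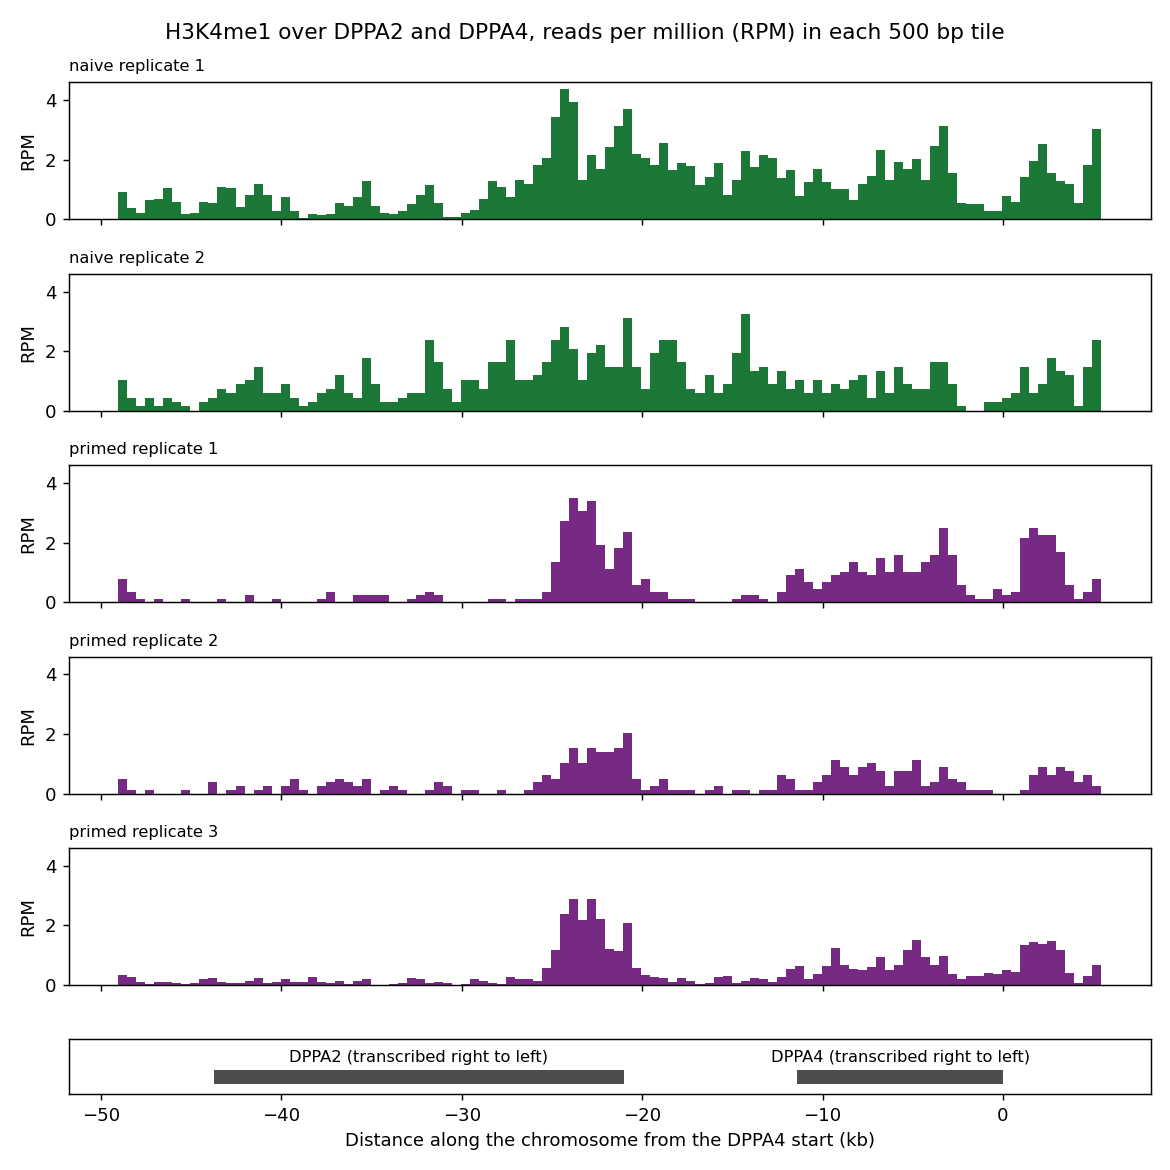
H3K4me1 in RPM (y axis, linear) in each 500 bp tile against the distance along the chromosome from the DPPA4 start in kb (x axis), 1 panel per library, green for naive and purple for primed, with the gene spans below. Signal fills the interval between the genes in both naive libraries. In the 3 primed libraries it is low there except towards the ends of the interval, next to the genes.

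Over the DPPA2 body the naive libraries held 1.06 and 1.11 RPM per tile and the primed libraries 0.499, 0.369 and 0.465 RPM, a naive to primed ratio of 2.45. This difference was not spread evenly along the gene. In the 8 tiles from the DPPA2 start to 4 kb downstream, a stretch chosen after the tile values were seen, the naive libraries held 2.81 and 1.93 RPM per tile and the primed libraries 2.36, 1.24 and 2.01 RPM, and the cell types overlapped. In the other 38 tiles, which run to the end of the gene, the naive libraries held 0.684 and 0.921 RPM and the primed libraries 0.0951, 0.187 and 0.134 RPM, a ratio of 5.79 with no overlap. The primed signal of DPPA2 was mostly at its start, whereas the naive signal ran through the gene.

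DPPA4 differed less. Its body held 1.31 and 0.793 RPM per tile in the naive libraries and 0.987, 0.534 and 0.639 RPM in the primed libraries, a ratio of 1.46 in which the second naive library lay below the first primed one. From 1 kb upstream to 2.5 kb downstream of the DPPA4 start, again a stretch chosen after the values were seen, H3K4me1 dipped in every library, to 0.498 and 0.254 RPM per tile in naive and 0.290, 0.109 and 0.360 RPM in primed PSCs. On the far side of the dip, from 1 to 4 kb upstream of the start, it stood at 1.66 and 1.21 RPM in naive and 1.90, 0.655 and 1.20 RPM in primed PSCs, and the cell types overlapped. Of the 5 stretches, the 5 kb beyond the end of DPPA2 held the least of the mark in every library. It had 0.551 and 0.350 RPM per tile in naive and 0.133, 0.115 and 0.144 RPM in primed PSCs. The naive to primed ratio there was still 3.45, without overlap.

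**Figure D2:**
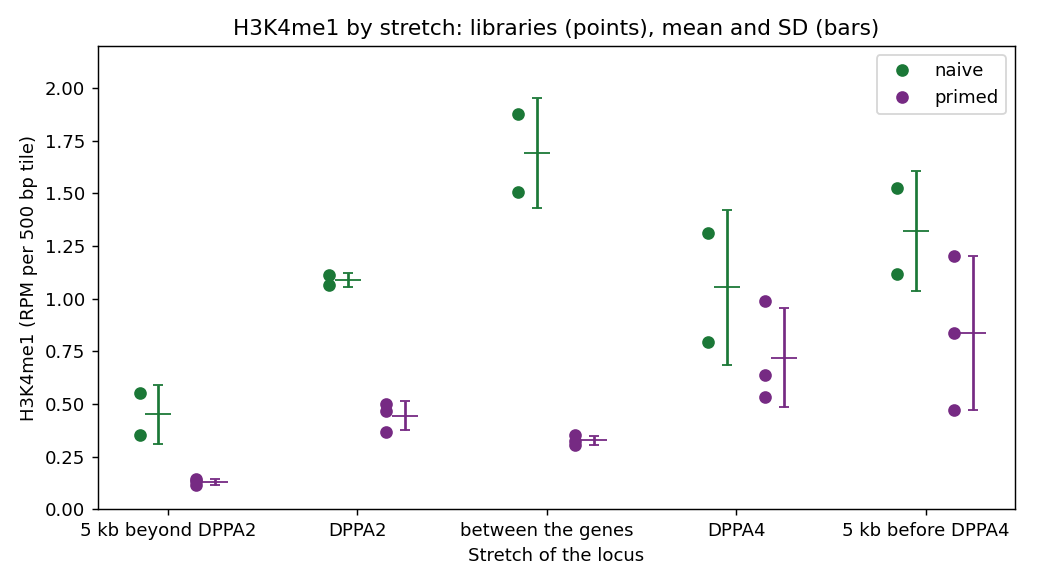
H3K4me1 in RPM per 500 bp tile (y axis, linear, from 0) in 5 consecutive stretches of the locus (x axis), with each library as a point and the mean and SD of 2 naive or 3 primed libraries as bars. The cell types stand furthest apart between the genes, at means of 1.69 and 0.327 RPM, and overlap over DPPA4 and upstream of it.

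Tiles were then tested one by one with limma on log2 RPM, fitted over the whole genome and adjusted by the Benjamini-Hochberg method. Among all 109 tiles of the 2 genes with 5 kb to each side, tested without any filter, 42 were higher in naive and 0 in primed PSCs at an adjusted p under 0.05. Over all tiles of the genome the same fit called 4.19% higher in naive and 3.78% higher in primed PSCs. By position, 23 of 45 tiles in the DPPA2 body, 14 of 19 between the genes, 0 of 23 in the DPPA4 body, 3 of 11 beyond the DPPA2 end and 2 of 11 upstream of DPPA4 were higher in naive. Every naive library lay above every primed library in 67 of the 109 tiles, against 18.0% of all tiles of the genome, and the reverse held in 0. The genome share of the reverse was not taken. An empty tile enters at −2.91 in naive replicate 2 and at −3.30 and −3.13 in primed replicates 1 and 2. An empty naive tile can thus count as above, and the reverse cannot hold where either primed tile is empty. These 3 libraries were empty in 3, 29 and 24 of the 109 tiles. These calls rest on few libraries: without naive replicate 1, naive replicate 2 or primed replicate 3 the unfiltered fit called 0 of the 109 tiles, with 0, 0 and 3 tiles called higher in naive in the whole genome, and it called 42 and 44 without primed replicates 1 and 2.

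When only tiles whose log2 RPM exceeded 0 in 2 or more libraries were tested, 53 of the 109 tiles were left, of which 25 were higher in naive and 0 in primed PSCs. The background with this filter was 26.1% higher in naive and 25.9% higher in primed PSCs. With 2 naive libraries, a tile that passed through them alone already had to differ, so the count among the remaining tiles is given as a description. It was 0 and 1 without naive replicate 1 and 2, and 22 to 27 without each primed library in turn. Without naive replicates 1 and 2 the same fits called 2795 of 335151 and 4575 of 331485 tiles of the genome higher in naive. The tiles called were 10 of 17 in the DPPA2 body, 11 of 12 between the genes, 2 of 16 in the DPPA4 body and 2 of 8 upstream of it.

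A tile between the genes, chosen like the next one after its values were seen, lies at chr3:109323001-109323500. It stood at log2 RPM 1.20 and 1.71 in the naive libraries, from 50 and 22 reads, and at −2.15, −2.98 and −2.73 in the primed libraries, from 2, 1 and 4 reads. Primed minus naive was −4.07 on the log2 scale (SE 0.71, limma adjusted p = 3.8e-06 without a filter). An intronic DPPA2 tile, at chr3:109309501-109310000, gave −4.04 (SE 0.72, limma adjusted p = 7.3e-06 without a filter), from 24 and 11 naive reads and 1 read in each primed library. In both tiles the primed libraries were at a handful of reads, so the size of the difference depends on few counts.

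At the starts, where the 5 libraries of the next 2 tiles were all above 0, the fit with the filter gave other results. The tile over the DPPA2 start, chr3:109316501-109317000, stood at log2 RPM 1.89 and 1.64 in naive and 1.25, 1.02 and 1.05 in primed PSCs, a difference of −0.66 (SE 0.36, limma adjusted p = 0.136). Inside DPPA2, 2.27 kb after the start, the tile chr3:109314001-109314500 stood at 0.41 and 0.05 in naive and 1.61, 0.02 and 1.12 in primed PSCs, a difference of 0.68 (SE 0.48, limma adjusted p = 0.252), and it was the tile with a call in primed when primed replicate 2 was left out. None of the 7 tiles of the dip around the DPPA4 start was called in either direction by the fit without a filter.

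As a mean over all tiles that touch the gene span, on the log2 RPM scale and so per length, DPPA2 stood at −0.55 and −0.12 in naive and −2.14, −1.89 and −2.41 in primed PSCs. Every naive library lay above every primed one, as in 34.1% of 20033 protein-coding gene spans. The difference of −1.81 gave p = 0.1 in the two-sided exact permutation test, the smallest p that 2 against 3 libraries allow, and 0.2 after adjustment over the 2 genes. A more negative difference was seen in 2.09% of the protein-coding spans, whose median was −0.20. DPPA4 stood at 0.11 and −0.65 in naive and −0.42, −1.37 and −0.86 in primed PSCs, a difference of −0.61 with overlapping libraries (exact permutation p = 0.4), and 28.0% of the spans were more negative. With 5 kb added to each side of DPPA4, which takes in part of the interval, the difference was −1.21 (exact permutation p = 0.1, the smallest possible). The 2 genes had like levels in naive PSCs, at means of −0.33 ± 0.30 for DPPA2 and −0.27 ± 0.54 for DPPA4 (SD, n = 2), above 94.2% and 94.99% of protein-coding spans. In primed PSCs DPPA2 stood at −2.15 ± 0.26, above 60.1% of spans, and DPPA4 stood at −0.88 ± 0.48 (SD, n = 3), above 92.1%. An empty tile enters as 0.9 reads, which is a lower log2 RPM in a deeper library, and a sum of reads over the span avoids this: it gave −1.25 for DPPA2 and −0.57 for DPPA4 on the log2 scale.

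The genes around the pair varied in level. Among 20 other genes within 500 kb, the 9 with at least 10 tiles had naive means of 0.0817 to 1.04 RPM per tile and naive to primed ratios of 0.722 to 1.78. MORC1, a germ-cell protein of transposon silencing, held 0.145 and 0.134 RPM in naive and 0.192, 0.169 and 0.180 RPM in primed PSCs. The lncRNA that starts beside DPPA4 (ENSG00000289358) held 1.04 and 1.03 RPM in naive and 0.979, 0.539 and 0.692 RPM in primed PSCs. The short pseudogenes ENSG00000241257 and C12orf29P2, of 1 and 3 tiles, had naive means of 1.66 and 1.65 RPM per tile, against 1.09 over the DPPA2 body and 1.05 over the DPPA4 body. Over all 20 genes, the naive to primed ratios ran from 0.497 for MIR4445, of 1 tile, to 9.71 for the pseudogene H3P12, of 2 tiles. H3P12 held 0.803 and 1.11 RPM in naive and 0, 0.127 and 0.169 RPM in primed PSCs, without overlap. LINC01205, on the other side, held 0.262 and 0.230 RPM in naive and 0.131, 0.138 and 0.146 RPM in primed PSCs.

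In PCHi-C, the DPPA4 fragment was linked to 6 regions in naive and 3 in primed PSCs, 2 of them in both. The CHiCAGO score grows as a pair of fragments gathers more reads than a background model expects. That model, fitted over baited and other regions, has a distance-dependent term and a technical noise term. Pairs that scored at least 5 are listed. A pair missing from a list therefore scored below 5 there and was not shown to lack contact. Each list is 1 combination of 2 replicates, so the difference in number has no replicate check. The shared 2 interactions were 33.3% of the naive ones (exact 95% binomial interval 4.33 to 77.7%, counting error only) and 66.7% of the primed ones (9.43 to 99.2%).

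Both shared partners lie near the start of MORC1. The fragment chr3:109100500-109103384, with the start of the antisense lncRNA MORC1-AS1 inside MORC1, is 236 kb away and was supported by 17 reads at a score of 21.48 in naive and 9 reads at 7.23 in primed PSCs. The fragment chr3:109115433-109119469 holds the divergent starts of MORC1 and of C3orf85, an uncharacterised open reading frame, is 220 kb away and had 8 reads in each list, at scores of 9.82 in naive and 6.48 in primed PSCs. The score of each was higher in naive. The read numbers are those combined and rounded by the authors within CHiCAGO.

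The other 4 naive interactions were listed in naive PSCs only. The strongest went to chr3:109019068-109019315, a fragment of 248 bp within MORC1 that carries a U3 snoRNA copy, 319 kb away, with 12 reads and a score of 17.08. The nearest went to chr3:109220482-109228888, which carries RNU6-1236P, a pseudogene of the spliceosomal U6 RNA, 113 kb away, with 12 reads and a score of 10.21. The remaining pair scored just above the limit. GUCA1C, a calcium-binding regulator of retinal guanylate cyclase, at chr3:108953023-108958666 and 382 kb away, had 4 reads and a score of 5.12, and PLCXD2, a phospholipase C-like protein, at chr3:111674187-111675995 and 2337 kb away on the opposite side, had 3 reads and a score of 5.80. One interaction was listed in primed PSCs only: the shared promoter of DZIP3, a ubiquitin ligase, and CIP2A, an inhibitor of protein phosphatase 2A, at chr3:108589483-108590285 and 748 kb away, with 4 reads and a score of 5.06.

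**Figure D3:**
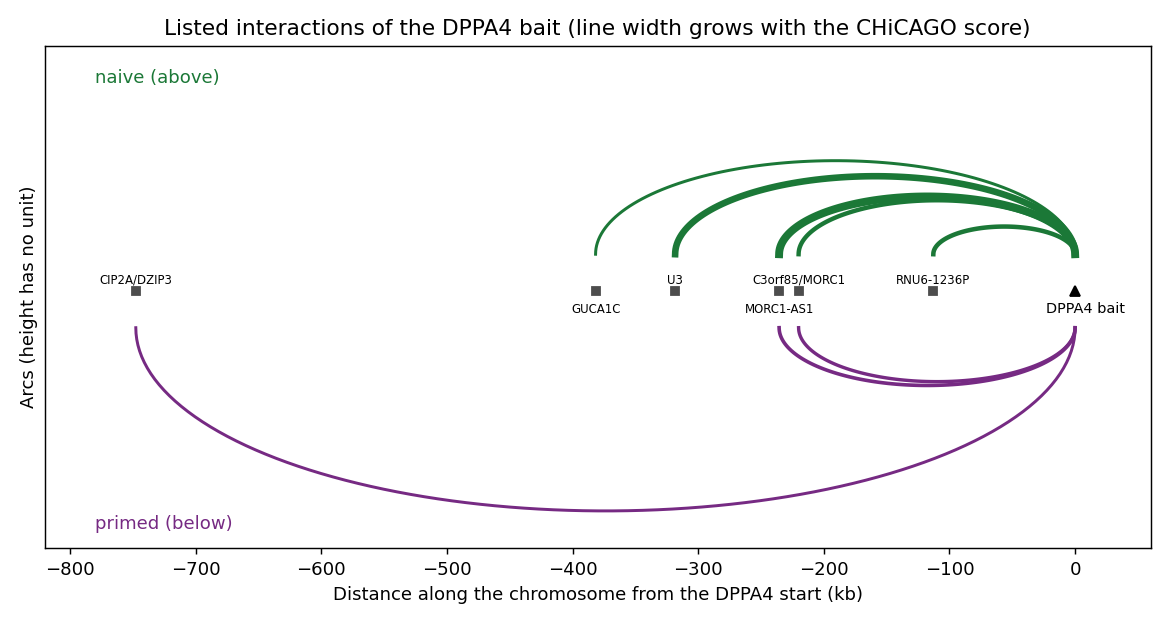
Interactions of the DPPA4 bait within 1 Mb as arcs against the distance along the chromosome from the DPPA4 start in kb (x axis), naive above and primed below, with wider lines for higher scores and no unit for the height. All lie on the MORC1 side, with 5 arcs in naive and 3 in primed, and the naive PLCXD2 interaction at 2337 kb lies off the right edge.

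All but the PLCXD2 interaction reached in 1 direction, over DPPA2 and towards MORC1. Every partner was itself a baited promoter fragment. Of the 4992 naive baits with at least 6 interactions, 1.70% had baited partners only, and of the 8386 primed baits with at least 3, 4.64% did. This feature was picked out after the partners were seen. The reads behind the interactions were few, 3 to 17 in naive and 4 to 9 in primed PSCs, with medians of 10 and 8 against 22 in each whole list. The MORC1-AS1 score of 21.48 was reached by 1.40% of all naive interactions, and those had a median of 55 reads. How far the coverage of this bait entered its scores was not tested. The median bait had 4 interactions in each list, and 30.6% of naive baits had more than 6 and 51.6% of primed baits more than 3.

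A few interactions passed over both genes without touching their fragments. The MORC1-side baits with the U3 copy, MORC1-AS1 and the MORC1 and C3orf85 starts were linked in naive PSCs to chr3:109398960-109400435, a fragment without a bait 61.4 kb upstream of the DPPA4 start, with 46, 32 and 21 reads and scores of 10.69, 6.10 and 6.31. In primed PSCs the first and the last of these were listed, each with 30 reads, at scores of 5.83 and 5.03.

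On the linked fragments themselves, the H3K4me1 libraries of the 2 cell types overlapped as mean log2 RPM. An empty tile enters that mean as 0.9 reads, at a value set by library depth. As means over a fragment, none of the 8 fragments, the DPPA4 bait and its 7 partners, was called by limma over all 88413 listed fragments, of which 13.2% were higher in naive and 8.19% higher in primed PSCs. The DPPA4 fragment stood at a mean log2 RPM of −0.05 and −0.84 in naive and −0.58, −1.69 and −0.92 in primed PSCs, a difference of −0.62 (SE 0.41, limma adjusted p = 0.343), with unadjusted p = 0.144. At an unadjusted p under 0.05 there was no call either, the lowest p of the 8 being that of the DPPA4 fragment.

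The partner with the higher level was the DZIP3 and CIP2A promoter, at −0.19 and −0.59 in naive and −0.45, −0.19 and −1.17 in primed PSCs, together with PLCXD2, at −0.17 and −1.28 in naive and 0.37, −0.61 and −0.78 in primed PSCs. These are the fragments of the 2 partners furthest away. The partners within MORC1 and next to it were low. The MORC1-AS1 fragment stood at −1.86 and −2.06 in naive and −1.80, −2.07 and −2.02 in primed PSCs, a difference of −0.01 (SE 0.36), and it carried the interaction with the highest score. The fragment of the MORC1 and C3orf85 starts stood at −2.81 and −2.24 in naive and −3.10, −2.46 and −2.87 in primed PSCs. GUCA1C was lowest, at −3.68 and −2.61 in naive and −3.06, −2.97 and −3.36 in primed PSCs, and the single tile of the U3 fragment held 2 to 8 reads per library.

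The RNU6-1236P fragment, linked in naive only, stood at −2.65 and −1.83 in naive and −2.69, −2.39 and −2.53 in primed PSCs, with a difference of −0.30 (SE 0.39, limma adjusted p = 0.708). It was called higher in naive when its highest tile was used in place of the mean (−1.45, limma adjusted p = 0.0197) and by edgeR on summed reads (−0.92, adjusted p = 0.0488), from 148 and 40 reads in naive and 25, 26 and 103 in primed PSCs. Scaled by library depth, these summed reads were higher in every naive library than in every primed one, so the overlap is that of the mean log2 RPM only.

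**Figure D4:**
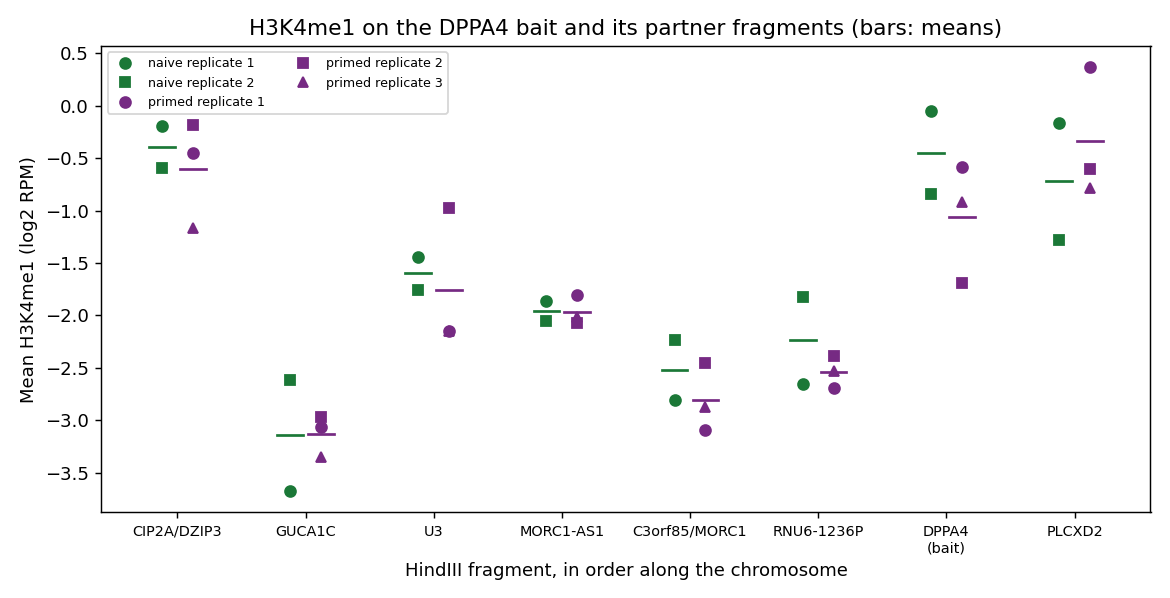
Mean H3K4me1 in log2 RPM (y axis) on the DPPA4 bait and its 7 partner fragments in chromosomal order (x axis), with naive libraries in green, primed libraries in purple and bars at the group means. On this scale the cell types overlap on all 8 fragments, and the DPPA4, DZIP3 and CIP2A, and PLCXD2 fragments stand above the MORC1-side ones.

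The DPPA2 start fragment, which is outside the lists and so outside that fit, contrasted with the DPPA4 fragment. The DPPA2 start fragment held a mean log2 RPM of 0.30 and 0.53 in naive and −1.29, −1.48 and −1.57 in primed PSCs, a difference of −1.86 over 27 tiles with no overlap. The fragments that adjoin it on either side differed the same way, by −1.69 and −3.82.

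In Hi-C, the 100 kb bin that starts at chr3:109300001 holds both starts, so the genes cannot be told apart. Contacts are di-tag counts of 1 library per cell type, 31310843 in all for naive and 52056334 for primed PSCs. Fewer of the distant pairs are listed in naive, with 881 on chromosome 3 at 1000 kb against 1917 in primed PSCs. The rule by which pairs were left out is not known. The bin made more contacts on the MORC1 side than on the other. At 200 kb it had 142 di-tags (exact 95% Poisson interval 119.6 to 167) towards MORC1-AS1 and the MORC1 start against 37 (26.1 to 51.0) on the other side in naive, and 155 (132 to 181) against 38 (26.9 to 52.2) in primed PSCs. The median pair at this distance on chromosome 3 had 178 and 206. At 100 kb, the side with the RNU6-1236P fragment had 146 against 82 in naive and 173 against 111 in primed PSCs, and at 300 kb, the bin with the U3 copy, 101 against 49 and 116 against 47. The intervals of the 2 sides did not overlap at any of these distances in either cell type.

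**Figure D5:**
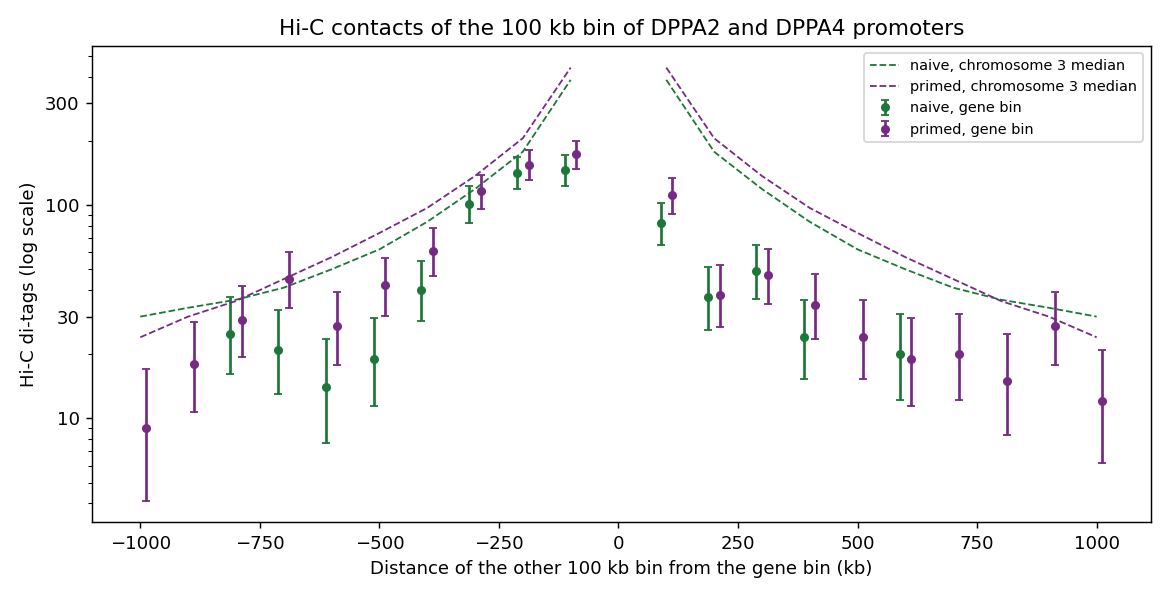
Hi-C di-tags (y axis, log scale) between the 100 kb bin of both starts and each bin within 1000 kb, against distance in kb with the MORC1 side negative (x axis), as points with exact 95% Poisson intervals. Dashed lines give the median of the listed chromosome 3 pairs at each distance. At 1000 kb these are 881 pairs in naive and 1917 in primed, with medians of 30 and 24, so the naive line is not a median of all pairs there. At 200 kb the MORC1 side stands at 142 and 155 and the other side at 37 and 38, and naive pairs that the file does not list have no point.

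Of all listed contacts within 1000 kb, 70.6% (exact 95% binomial interval 67.1 to 73.9%) were on the MORC1 side in naive and 66.0% (63.1 to 68.9%) in primed PSCs, with 13 of 20 bins listed in naive and 20 of 20 in primed. Most bins not listed in naive lay on the other side, which raises the naive share. Within 500 kb, with 9 of 10 bins listed in naive and 10 of 10 in primed, the shares were 70.0% and 68.3%. Coverage differed between bins. The gene bin itself had fewer chromosome 3 contacts than most, with 4.73% of bins below it in naive and 11.3% in primed PSCs. At 100 kb the far bin had 4.07% and 8.86% below it, and the MORC1-side bin 12.1% and 19.0%. At 200 kb these were 14.2% and 27.5% against 36.7% and 76.8%, and at 300 kb 58.0% and 80.5% against 61.1% and 65.6%. In primed PSCs the far bin at 300 kb was thus the better covered one. The part of coverage in the asymmetry was not tested. Contacts with the 3 nearest MORC1-side bins summed to 389 in naive and 444 in primed PSCs, a primed to naive ratio of 1.14, which became 0.628 when each was divided by its listed contacts within chromosomes. The direction between cell types therefore depends on the scaling, and none is given. For PLCXD2, the bin pair was not listed in naive and had 16 di-tags in primed PSCs, where the median listed pair at this distance had 6. Only 29 chromosome 3 pairs at this distance were listed in naive, against 1804 in primed PSCs. The missing naive pair therefore says nothing about contact.

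Other genes of the same biology were taken as a list of 20 partners and relatives of the pair: embryonic and germline genes, H3K4 methyltransferases, Polycomb subunits and DNA methylation enzymes. Of the 20, 15 had a promoter on a baited fragment, on 14 fragments in all, and ZFP42, ZSCAN4, TPRX1, DNMT3B and DNMT3L had none. H3K4me1 was higher in naive on 5 of the 14 fragments and higher in primed on 0. The backgrounds of 13.2% and 8.19% are over all listed fragments, baited or not, and the shares over baited fragments alone were not taken. The median primed minus naive difference was −0.63, against −0.17 over all baited fragments and −0.06 over all listed ones. Interactions were more numerous in naive on 7 fragments, in primed on 3, and equal on 4. The same shares over all baited fragments were not taken, so these counts describe the list only. Several fragments differed by a single interaction, such as KMT2A with 4 in naive and 3 in primed PSCs, and DPPA3 with 6 and 7.

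The largest change was on the fragment shared by DPPA5, an RNA-binding protein of pluripotent cells, and KHDC3L, a subunit of the maternal subcortical complex of the egg. It stood at 0.45 and 0.35 in naive and −2.65, −1.91 and −2.57 in primed PSCs, a difference of −2.78 (SE 0.37, limma adjusted p = 2.51e-05), and had 5 interactions in naive and 0 in primed PSCs. TET2 and TET1, which oxidise methylated cytosine, differed by −2.36 (SE 0.38, limma adjusted p = 0.000168) and −1.57 (SE 0.36, limma adjusted p = 0.003). DPPA3, a maternal factor that protects against DNA methylation, differed by −1.73 (SE 0.35, limma adjusted p = 0.0013), and the Polycomb subunit SUZ12 by −1.19 (SE 0.36, limma adjusted p = 0.0209). The remaining 9 fragments were not called, with KMT2B, the H3K4 methyltransferase of bivalent promoters, at −0.09 (SE 0.37) and EZH2, the catalytic Polycomb subunit, at 0.60 (SE 0.38).

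Baited fragments most like each gene were ranked by Euclidean distance over 7 values, the mean H3K4me1 of the 5 libraries and the log2 number of interactions plus 1 in each list, among 15982 fragments. For DPPA4 the nearest were the fragments of ATG10 (distance 0.455), CCNB2 (0.619), CISD1 with IPMK (0.655), UBTD2 (0.696) and CXCL17 (0.697), against a median distance of 3.58. ATG10, for example, had 5 interactions in naive and 3 in primed PSCs. For the DPPA2 start fragment, entered with 0 listed interactions, the nearest were those of COPS7B with PDE6D (1.09), CCNK with SETD3 (1.12), GPRC5A (1.15), a fragment on chromosome 17 without an annotated promoter (1.16) and APOD (1.16), against a median of 4.88. That 0 stands for a fragment not listed, whereas every candidate had at least 1 interaction. No distance could therefore fall below 1, and the entry itself favoured fragments with 1 interaction, as all those named have.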

How the data were processed

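Libraries were grouped by the cell type in their labels. The authors mapped PCHi-C read pairs on GRCh38 with HiCUP, combined 2 replicates per cell type in CHiCAGO, and deposited each pair with a CHiCAGO score of at least 5 and a combined, rounded read number, here treated as a score and not a raw count. The authors deposited Hi-C di-tag counts per pair of 100 kb bins, without normalisation. For H3K4me1, the authors trimmed with Trim Galore 0.5.0, mapped with Bowtie2 2.3.2 and deposited log2 RPM per 500 bp tile, where a tile without reads was given 0.9 reads and all values were whole reads within 0.01. NANOG, SOX2 and input ChIP-seq libraries were not analysed here.

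Column 4 of the interaction lists holds bait marks and no gene names, so fragments were matched to GENCODE promoters. All listed chromosome 3 fragments had the ends of a HindIII digest of GRCh38. Interactions listed from both baits were merged. Tiles and fragment means were compared over the whole table with limma 3.58.1 (lmFit, eBayes with trend, R 4.3.3), Benjamini-Hochberg threshold 0.05, and with edgeR 4.0.16 (quasi-likelihood) on recovered reads as an added alternative, both tested on simulated data. The labels do not say whether the H3K4me1 replicates were separate cultures, so p-values measure the spread between these libraries. Other steps ran in Python 3.11.15 (scipy 1.17.1, pandas 2.3.3, numpy 2.4.6, matplotlib 3.10.9). The genes named were DPPA2, DPPA4, genes on partner fragments, genes within 500 kb, up to 6 of the list of 20 past the threshold with the largest difference, and the 5 most alike fragments per gene; the others named for that list were chosen after their values were seen. The members and lists were chosen with earlier results of these data known. Alternatives were other score, read and RPM minima, log2(RPM + 1), quantile normalisation, a replicate block, and each library left out in turn. The sequence and values of 1 tile between the genes are not reported here.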

Additional observations from a re-analysis of the deposited data

How the results depend on the processing

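The DPPA4 bait had 3 naive interactions at a score of at least 10 or at least 10 reads, and 1 primed interaction at a score of at least 7 and 0 at 10 or with 10 reads. The share common to both was then 0% of naive interactions at a score of 10 or with 10 reads, and 100% of primed ones at a score of 7 or with lists of the same length. Tiles higher in naive numbered 4 of 12 when log2 RPM had to exceed 1 in 2 libraries, against 24885 of 108954 in the genome. They numbered 42 without a filter, against 259041 of 6176584. Leaving out each library they numbered 0 to 27, and 0 to 44 without a filter. The falls to 0 and 1 without naive replicates 1 and 2 came with genome counts of 2795 of 335151 and 4575 of 331485. Tiles higher in primed numbered 0 to 1. The replicate numbers did not pair the samples (correlations of deviations 0.0349 and 0.0309). With a replicate block 22 of 53 tiles were higher in naive, against 99427 of 465156 in the genome. One fragment, that of RNU6-1236P, was higher in naive with the highest tile (−1.45) and with edgeR (−0.92). DPPA2 kept its direction under all alternatives, −2.02 to −1.60 leaving out each library, as did DPPA4, at −0.996 to −0.23, and at −1.21 with 5 kb to each side. The Hi-C ratio was 0.628 once divided by contacts within chromosomes. Quantile normalisation moved the median of tested tiles from −0.08 to 0.14, and 21 of 46 tiles were then higher in naive, against 102942 of 431898 in the genome. No member fragment had a mean log2 RPM exceeding 0 in 2 libraries, so that alternative gave no value. A depth of 6.74 M to 26.6 M reads left 0 to 3 reads in many primed tiles, and with 2 naive libraries the calls depend on both.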
